A study of Mus musculus with 2 samples.

Results

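Hepatocytes along the axis from the portal tract to the central vein do different work, and the cells described here are those at the central vein end of that axis in MASH livers. Hepatocytes of each library were ordered by their ratio of pericentral to periportal landmark counts and split into 3 sets of nearly equal size, and the pericentral set is the one with the highest ratios. The periportal set has the lowest ratios, and the middle set lies between them. The ratio, called z, is the log2 of the summed counts of Glul, Oat, Cyp1a2 and Cyp2e1 plus 1 over the summed counts of Hal, Sds, Gls2 and Cyp2f2 plus 1 in each cell. Hepatocytes were cells with at most 10% mitochondrial counts, 8000 to 60000 counts in all, and fewer than 3 counts per 10000 of 9 marker genes of leukocytes, endothelial cells, stellate cells and cholangiocytes. This left 1546 hepatocytes of 6116 deposited cells, and 514 of them form the pericentral set. Of these 514 cells, 267 came from the library labelled AEG-1DMAC and 247 from the library labelled AEG-1fl/fl.

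Each genotype has 1 single-cell library of liver. The mice were 27 weeks old, and a high-fat, high-sugar diet (HF/HSD) begun at 7 weeks had lasted 20 weeks. AEG-1fl/fl mice carry floxed alleles of Mtdh, the gene of AEG-1, and AEG-1DMAC mice carry the same alleles together with a Cre recombinase that the Lyz2 promoter drives in myeloid cells. Both groups therefore share the floxed alleles and the diet, and hepatocytes are not the cells in which the deletion is driven. The sex of the mice in each library, and whether a library pools several livers, are not given in the sources used here. Each label has 1 library, so no test between labels was possible. The 95% intervals given here reflect counting error alone. How mice vary was not measured and cannot be told apart from the label.

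The central vein endothelium secretes Wnt ligands, and the hepatocytes next to it respond through β-catenin. They make glutamine from ammonium that escaped the urea cycle, metabolize xenobiotics with cytochrome P450 enzymes and synthesize bile acids. Hepatocytes at the portal end receive oxygen-rich blood and are known for urea synthesis, gluconeogenesis and the breakdown of amino acids such as serine and histidine.

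The pericentral set held 6885489 counts in the library labelled AEG-1DMAC and 6762584 counts in the library labelled AEG-1fl/fl. Its median cell had 21826 and 24059 counts, and 5099 and 4959 genes, in the same order. When each cell was thinned to 8000 counts, the median number of genes per cell was 2852 and 2615 in the pericentral set and 2319 and 2381 in the periportal set. The median of z in the pericentral set was 5.77 in the library labelled AEG-1DMAC and 5.67 in the library labelled AEG-1fl/fl. The lowest cell inside it had a z of 4.38 and the highest cell outside 4.37 in the library labelled AEG-1DMAC. In the library labelled AEG-1fl/fl the cells on both sides of the limit tied at 4.29. The limit is not a gap between cell types, since 106 of the 267 and 94 of the 247 members lay within 1 log2 unit of it.

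Mtdh goes against the labels in the cells where its deletion is driven. In cells with macrophage markers, Mtdh had 131 CPM (counts per 1000000 counts; 95% Poisson interval 116 to 147, 245 cells) in the library labelled AEG-1DMAC and 22.0 CPM (18.1 to 26.6, 595 cells) in the library labelled AEG-1fl/fl. Whether its probes lie inside the deleted part of the gene is not given in the sources used here. If they lie outside it, the level does not report the deletion. What made the levels of the 2 libraries differ was not tested. Every direction given here rests on the labels as deposited. In the pericentral set, Mtdh had 59.3 CPM in the library labelled AEG-1DMAC and 58.6 CPM in the library labelled AEG-1fl/fl, a log2 ratio of 0.02 (95% interval -0.19 to 0.22). The libraries share 10 cell barcodes, 8 of them are among the hepatocytes kept, and none was kept in both libraries.

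The name of these cells was checked on Rhbg, the marker that the rule did not use. Rhbg, an ammonium transporter of perivenous hepatocytes, had 60.9 CPM in the pericentral set and 2.95 CPM in the periportal set of the library labelled AEG-1DMAC. It had 32.1 and 1.61 CPM in the library labelled AEG-1fl/fl. At their own depth, 149 of 267 and 163 of 247 pericentral cells had no Rhbg count. Glul, glutamine synthetase and a rule gene, was without a count in 7 of 267 and 13 of 247 pericentral cells.

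Promoters of genes that mark these cells are shown because T-cell factors, the partners of β-catenin on DNA, bind sites with a CTTTG core. Sequences are from RefSeq (GRCm38.p6) and run 5′ to 3′ on the gene's strand from 250 bases before to 50 bases after a RefSeq start site. The capitals mark CTTTGA or CTTTGT on either strand, so that TCAAAG and ACAAAG are marked too. Slc1a2 (chr2:102706188-102706487, plus strand) and Cyp2c38 (chr19:39463026-39463325, minus strand) had the 2 highest ratios of the pericentral over the periportal set. The window of Slc1a2 lies inside the gene, whose GENCODE start is at 102658659. Cyp2e1 (chr7:140763569-140763868, plus strand) and Glul (chr1:153899679-153899978, plus strand) are genes of the rule.
Slc1a2: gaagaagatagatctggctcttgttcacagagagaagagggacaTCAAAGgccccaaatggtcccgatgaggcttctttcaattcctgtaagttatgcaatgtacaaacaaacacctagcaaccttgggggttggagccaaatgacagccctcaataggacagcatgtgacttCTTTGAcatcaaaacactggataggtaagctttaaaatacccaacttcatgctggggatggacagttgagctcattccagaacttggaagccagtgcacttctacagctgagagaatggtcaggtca
Cyp2c38: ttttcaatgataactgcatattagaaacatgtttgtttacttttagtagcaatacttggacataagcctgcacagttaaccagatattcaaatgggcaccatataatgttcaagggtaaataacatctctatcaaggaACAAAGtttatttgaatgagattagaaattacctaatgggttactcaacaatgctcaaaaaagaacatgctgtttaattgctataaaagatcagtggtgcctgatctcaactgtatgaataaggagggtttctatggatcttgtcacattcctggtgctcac
Cyp2e1: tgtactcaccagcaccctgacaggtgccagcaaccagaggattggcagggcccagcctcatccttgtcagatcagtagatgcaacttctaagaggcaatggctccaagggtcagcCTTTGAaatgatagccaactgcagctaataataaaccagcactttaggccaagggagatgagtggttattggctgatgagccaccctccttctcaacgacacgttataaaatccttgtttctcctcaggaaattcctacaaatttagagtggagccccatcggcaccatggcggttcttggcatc
Glul: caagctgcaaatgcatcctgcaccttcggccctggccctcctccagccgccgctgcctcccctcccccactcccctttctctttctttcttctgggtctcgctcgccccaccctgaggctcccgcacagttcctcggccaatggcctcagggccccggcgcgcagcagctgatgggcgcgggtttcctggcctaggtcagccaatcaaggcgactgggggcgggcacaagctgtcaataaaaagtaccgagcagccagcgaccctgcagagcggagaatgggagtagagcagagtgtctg
The window of Slc1a2 holds CTTTGA once on each strand, that of Cyp2e1 holds it once, that of Cyp2c38 holds CTTTGT once, and that of Glul holds neither. Over 32851 mouse promoter windows, which do not cover every chromosome, 16.0% hold CTTTGA, 18.7% hold CTTTGT and 31.2% hold either. Of the 12 genes with the highest ratio of the pericentral over the periportal set, 9 had a window and 4 of these held a match (Cyp2c38, Npr2, Slc1a2 and Tnfrsf19). Of the 12 genes with the lowest ratio, 9 had a window and 3 held a match. A match is a description of the letters and not a bound site.

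The pericentral and the periportal set of the same library were compared first, as a description, since the rule set these cells apart. Of 6796 genes with at least 200 counts over both sets in each library, 117 (1.72%) were at least 2-fold higher in the pericentral set in both libraries and 49 (0.721%) were at least 2-fold lower. In the library labelled AEG-1DMAC alone 311 genes (4.58%) were higher and 69 (1.02%) lower, and in the library labelled AEG-1fl/fl alone 157 (2.31%) were higher and 69 (1.02%) lower. The median of all 6796 genes was itself above 0, at 0.32 log2 units in the library labelled AEG-1DMAC and 0.17 in the library labelled AEG-1fl/fl. Alb, which encodes albumin, took 4.49% and 5.03% of the counts of the pericentral set and 8.82% and 7.31% of those of the periportal set. Scaling by the median of ratios, which sets the median gene to 0, gave 81 genes higher and 70 lower in place of 117 and 49. The cells between these sets had an intermediate level for 116 of the 117 genes and for 47 of the 49 genes in both libraries. Across genes, which are not independent replicates, the ratios of the 2 libraries had a Pearson r of 0.79 over 6796 genes.

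**Figure D1:**
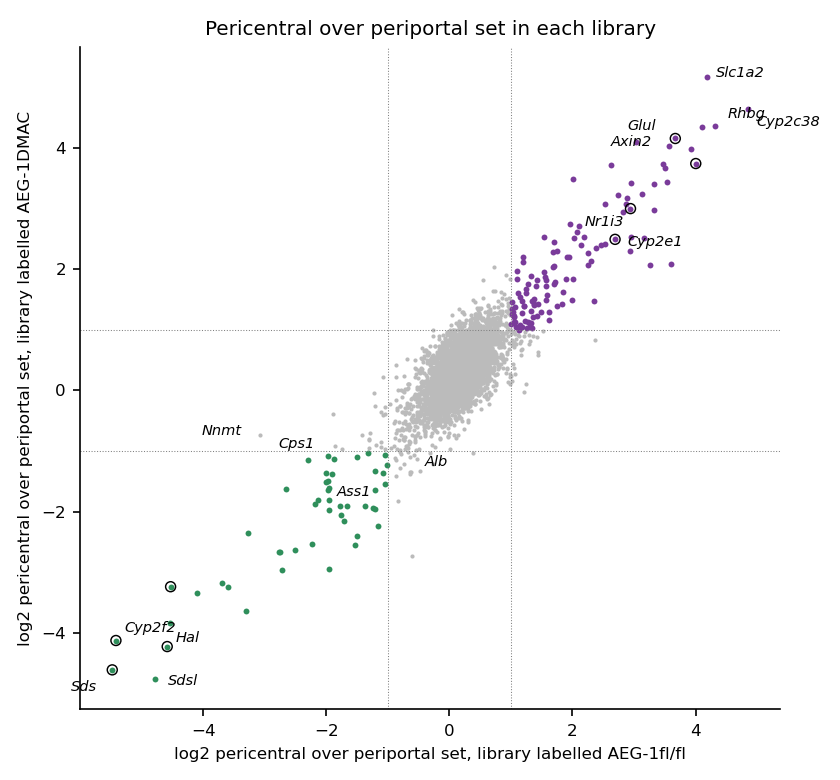
Each point is 1 of 6796 genes, placed by the log2 ratio of the pericentral over the periportal set in the library labelled AEG-1fl/fl (horizontal) and in the library labelled AEG-1DMAC (vertical). Purple and green points are the 117 genes at least 2-fold higher and the 49 at least 2-fold lower in both, dotted lines mark 2-fold, and the 8 circled genes are those of the rule; Nnmt lies off the diagonal at -3.08 and -0.73.

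Slc1a2, Rhbg, Lhpp and Slc13a3, from the list named ammonium and glutamate handling, were among the genes with the highest pericentral over periportal ratios. The list is wider than its name, since Lhpp, Slc13a3 and the calcium-binding protein Rgn are counted in it. Of the 7 genes of this list, 6 had enough counts, 5 were at least 2-fold higher in the pericentral set in both libraries and none was lower, with medians of 4.04 and 3.79 log2 units in the libraries labelled AEG-1DMAC and AEG-1fl/fl. Slc1a2 (ENSMUSG00000005089, chromosome 2, 102658659 to 102790784), a glutamate transporter, had 761 and 279 CPM in the pericentral set and 21.1 and 15.3 CPM in the periportal set. Lhpp, a histidine and lysine phosphatase, had 279 and 130 CPM against 13.7 and 7.57 CPM. Slc13a3, a transporter of dicarboxylates, had 176 and 140 CPM against 13.3 and 12.6 CPM. All of these levels in the pericentral set exceeded those in the periportal set by more than the counting error in each library. The rule had set these cells apart, so this order is a description. Slc38a3, a glutamine transporter, was the exception in the list, with log2 ratios of -0.06 and -0.56.

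Targets and feedback inhibitors of Wnt signaling were also higher towards the central vein. Of 11 genes, 7 had enough counts, 6 were at least 2-fold higher in both libraries and none was lower, with medians of 2.52 and 2.02. Axin2, which limits β-catenin, had 94.3 and 55.5 CPM in the pericentral set and 5.74 and 4.67 CPM in the periportal set. Notum, an enzyme that inactivates Wnt ligands, had log2 ratios of 3.08 and 2.87. Tbx3, a transcription factor and β-catenin target of liver, had log2 ratios of 3.98 and 3.93. Rnf43, a ubiquitin ligase that removes Wnt receptors from the cell surface, had log2 ratios of 2.45 and 1.70, and its relative Znrf3 had 1.18 and 0.61. Lgr5, the receptor of R-spondins, was below the count minimum here, with 27.7 and 10.5 CPM in the pericentral set and 1.03 and 0.81 CPM in the periportal set.

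Cytochrome P450 genes were on both sides of 0. Of 16 cytochrome P450 and partner genes with enough counts, 6 were at least 2-fold higher in both libraries and none was lower, with medians of 1.09 and 0.76. Cyp2c38, of the arachidonic acid metabolizing Cyp2c family, had 270 and 321 CPM in the pericentral set and 10.8 and 11.1 CPM in the periportal set, and was the gene with the highest mean log2 ratio. Cyp2c29 had log2 ratios of 2.54 and 2.95 and Cyp3a11 of 1.29 and 1.5, whereas Cyp2c70, a bile acid hydroxylase, had -0.20 and -0.52. The Cyp2c genes are close paralogs, and how the probes separate them is not given in the sources used here. Por, the reductase that feeds electrons to these enzymes, had log2 ratios of 1.29 in the library labelled AEG-1DMAC and 0.23 in the library labelled AEG-1fl/fl.

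Of 8 xenobiotic and nuclear receptors, 2 were at least 2-fold higher in both libraries and none was lower, with medians of 0.55 and 0.28. These were Nr1i3, which encodes the receptor CAR, at 2.62 and 2.07, and Ahr, the aryl hydrocarbon receptor, at 2.40 and 2.14. Hnf4a, a factor that all hepatocytes need, had 0.09 and -0.05. Of 18 conjugating enzymes, 2 were higher and none was lower, with medians of 0.44 and 0.52. Gstm2 had log2 ratios of 2.35 and 2.38 and Gstm3 of 1.43 and 1.45, and both are glutathione transferases.

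Bile acid and heme genes included a few with large ratios. Of 15 bile acid genes, 2 were at least 2-fold higher and none was lower, with medians of 0.59 and 0.41. Cyp7a1, the rate-limiting enzyme of bile acid synthesis, had 307 and 532 CPM in the pericentral set and 62.0 and 158 CPM in the periportal set. Slco1b2, an uptake transporter of organic anions, had log2 ratios of 1.72 and 1.40. Of 11 heme genes, only Blvrb, a biliverdin reductase, was at least 2-fold higher in both libraries, at 1.73 and 1.58, and the list medians were 0.67 and 0.40. Alas1, which starts heme synthesis, had 1.12 in the library labelled AEG-1DMAC and 0.40 in the library labelled AEG-1fl/fl.

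Few lipid genes were past 2-fold. Of 15 lipid droplet genes, all 15 were above 0 in both libraries and 2 were at least 2-fold higher, with medians of 0.47 and 0.54. These 2 were Cidea and Cidec, which enlarge lipid droplets, at 2.07 and 2.25, and at 1.04 and 1.18. Of 20 genes of fatty acid oxidation and ketogenesis, 2 were higher (Fgf21 and Acot1) and none was lower, with medians of 0.33 and 0.41. Of 19 genes of cholesterol synthesis and uptake, 1 was higher (Msmo1) and none was lower, with medians of 0.38 and 0.31. No gene of glycolysis and lipogenesis reached 2-fold in either direction in both libraries, of 20 with enough counts, and the list medians were 0.06 and 0.27, which were below 0 on average when scaled by the median of ratios.

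The urea cycle list had its median below 0 in the pericentral set. Of 8 urea cycle genes, 4 were at least 2-fold lower in both libraries and none was higher, with medians of -1.0 and -1.18. Ass1, which makes argininosuccinate, had 1142 and 629 CPM in the pericentral set and 3473 and 2443 CPM in the periportal set. Cps1, which fixes ammonium, had log2 ratios of -1.09 and -1.97, and Arg1, which releases urea, had -1.5 and -2.01. Nags and Slc25a13 of the same list were above 0 in both libraries.

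Of 14 periportal landmarks outside the rule, 7 were at least 2-fold lower in the pericentral set and none was higher, with medians of -1.18 and -1.49. Hsd17b13, a lipid droplet enzyme of periportal cells, had 265 and 296 CPM against 1646 and 1682 CPM. Of 20 acute phase genes, Hpx (hemopexin) was at least 2-fold lower in both libraries and none was higher, with medians of -0.57 and -0.48, and 17 of the 20 were below 0 in both. Sdsl, a relative of the rule gene Sds, had 2.61 and 2.51 CPM in the pericentral set and 71.1 and 68.8 CPM in the periportal set. It had only 18 and 17 counts in the pericentral set.

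Levels inside the pericentral set are given as a description over z, whose numerator counts Glul, so that the course of Glul is set in part by the ordering. Because z takes raw counts plus 1, it also depends on the depth of a cell where periportal counts are near 0. In the library labelled AEG-1fl/fl the median cell had 24059 counts in the pericentral and 18398 in the middle set. In the library labelled AEG-1DMAC it had 21826 and 21718 counts. Over 20 equal bins of hepatocytes ordered by z, bins 15 to 20 lie inside the pericentral set. Glul went from 887 CPM in bin 15 to 4600 CPM in bin 20 in the library labelled AEG-1DMAC, and from 352 to 3033 CPM in the library labelled AEG-1fl/fl. Slc1a2 went from 369 to 1489 CPM and from 79.5 to 691 CPM over the same bins. Rhbg, at 15.9 and 15.5 CPM in bin 15, had 135 and 80.7 CPM in bin 20. All 3 genes had their highest level in bin 20 in both libraries.

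Other pericentral genes had a flatter course inside the pericentral set. Cyp2c38 had 224 CPM in bin 15 and 298 CPM in bin 20 in the library labelled AEG-1DMAC, and 307 and 388 CPM in the library labelled AEG-1fl/fl. Nr1i3 had 801 and 476 CPM in these bins in the library labelled AEG-1DMAC and 577 and 452 CPM in the library labelled AEG-1fl/fl, with 979 CPM in bin 16 of the first and 725 CPM in bin 19 of the second between them. Ass1 continued downwards, from 1699 to 488 CPM and from 873 to 229 CPM.

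**Figure D2:**
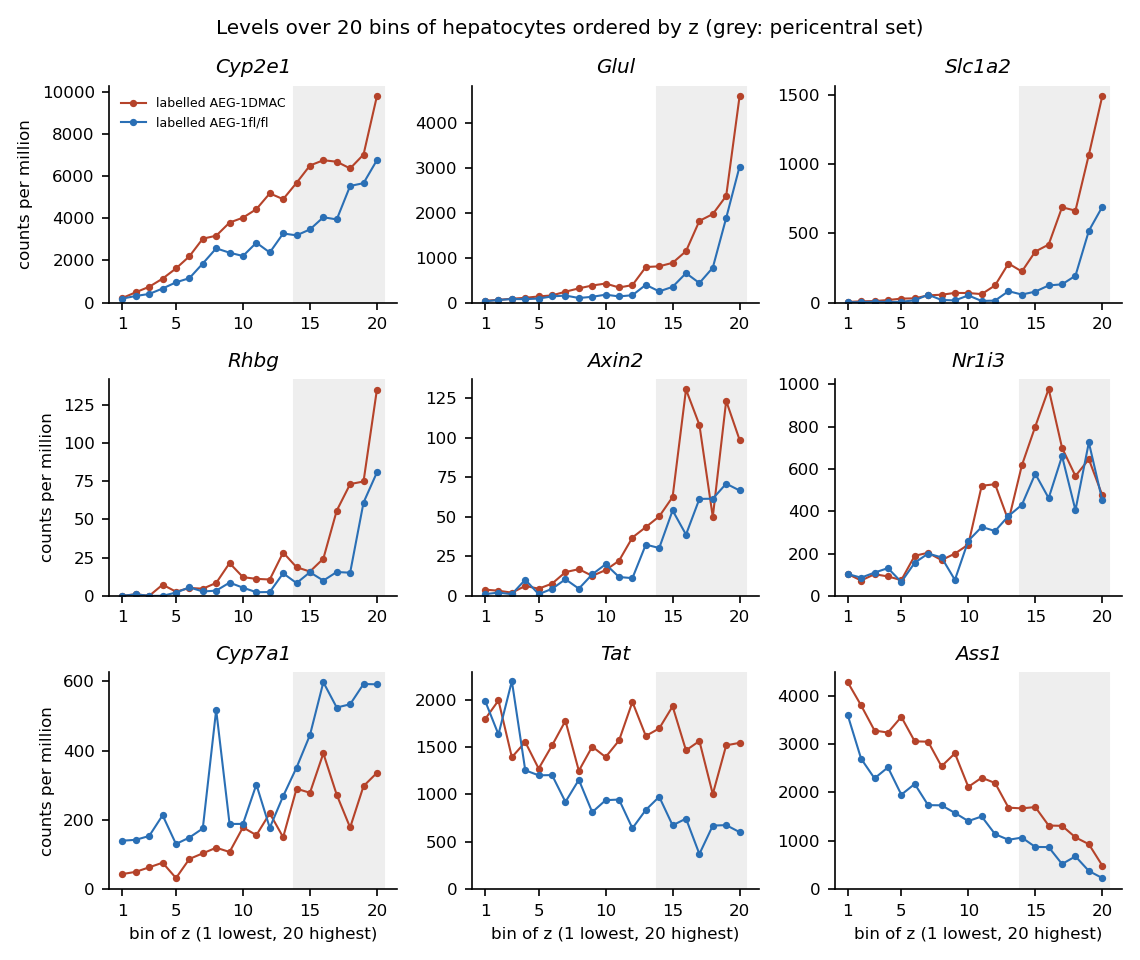
Levels in CPM (vertical) of 9 genes over 20 bins of hepatocytes ordered by z (horizontal, bin 20 highest in z), with 1 line per library and the pericentral set in grey. Glul, Slc1a2 and Rhbg climb in the last bins, to 4600, 1489 and 135 CPM in the library labelled AEG-1DMAC, while Nr1i3 goes up and down inside the set and Ass1 is lower in bin 20 than in bin 15.

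Among the genes whose course over the bins was most like that of Glul were Oat (mean Pearson r of 0.985), Slc1a2 (0.980), Lhpp (0.979) and Adgrv1 (0.971). The likeness is the mean of the correlations in the 2 libraries, each over 20 bins of log2(CPM + 10), and the bins were ordered with the counts of Glul and Oat themselves. Adgrv1, an adhesion receptor, had 79.9 and 87.1 CPM in the pericentral set and 7.51 and 8.70 CPM in the periportal set.

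Single cells showed that the pericentral set held cells with very high and with low Glul side by side. Per 10000 counts of the cell, Glul had a median of 6.13 and a 90th percentile of 59.6 in the library labelled AEG-1DMAC, and 2.95 and 42.2 in the library labelled AEG-1fl/fl. At least 20 Glul counts per 10000 were found in 101 of 267 pericentral cells (37.8%, 95% Clopper-Pearson interval 32.0 to 43.9) in the library labelled AEG-1DMAC. The number was 50 of 247 (20.2%, 15.4 to 25.8) in the library labelled AEG-1fl/fl. This level of 20 was chosen after the values were seen, and 13 and 12 pericentral cells lay within 5 of it. At a level of 10 the shares were 42.7% and 29.1%, and at 40 they were 25.8% and 10.9%.

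Cells at or above 20 Glul counts per 10000 were nearly all pericentral by the rule, which counts Glul. Only 8 of 269 and 4 of 249 cells of the middle set, and none of 267 and 247 cells of the periportal set, reached it. The rule itself keeps such cells out of the periportal set. Over all hepatocytes, 109 of 803 (13.6%, 11.3 to 16.1) and 54 of 743 (7.27%, 5.51 to 9.38) did so.

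**Figure D3:**
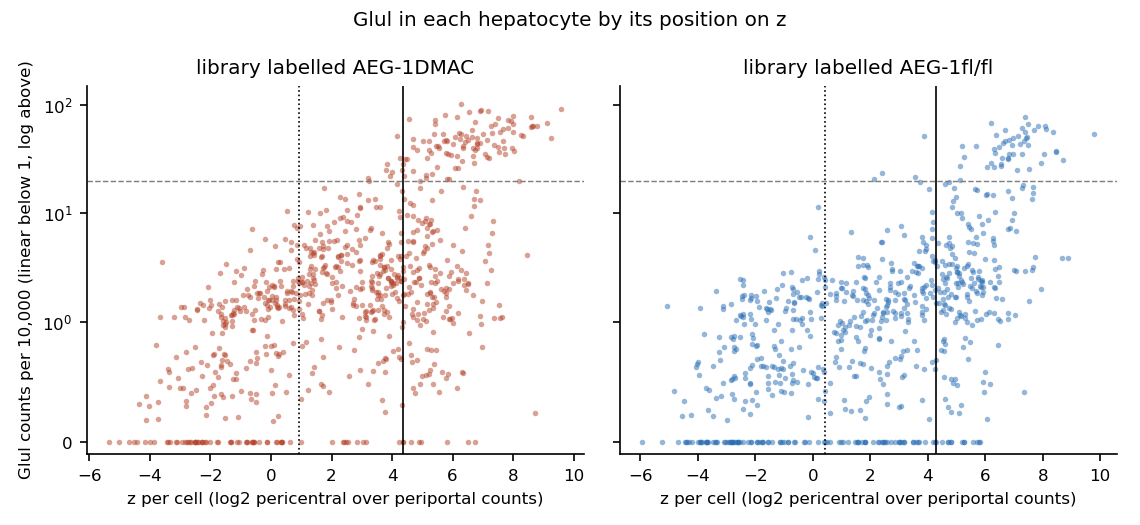
Each point is 1 hepatocyte, by its z (horizontal) and its Glul counts per 10000 (vertical, linear below 1 and logarithmic above), in the library labelled AEG-1DMAC (left) and AEG-1fl/fl (right). The solid line is the limit of the pericentral set, the dotted line that of the periportal set and the dashed line 20 per 10000, above which lie 101 of 267 and 50 of 247 pericentral cells.

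The pericentral cells above and below this Glul level are described by their levels of other genes, with nothing tested, since the level was chosen after values were seen. Rhbg had 145 CPM (95% interval 131 to 161) in the pericentral cells above it and 11.3 CPM in those below in the library labelled AEG-1DMAC, and 101 and 14.5 CPM in the library labelled AEG-1fl/fl. Slc1a2 had 1903 and 87.7 CPM, and 1076 and 75.7 CPM. Nkd1, an inhibitor of Wnt signaling, had 64.3 and 3.46 CPM, and 12.4 and 2.60 CPM. Nr1i3 had 546 CPM above the level and 794 CPM below it in the library labelled AEG-1DMAC, and 501 and 532 CPM in the library labelled AEG-1fl/fl, where the intervals (464 to 539 and 513 to 552) overlap. Cps1 had 267 and 1193 CPM, and 107 and 607 CPM, of which the levels above the Glul level are below the 505 and 285 CPM of the cells with other-cell markers described in the next paragraph.

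Free RNA in the droplets can add counts of abundant genes to cells, and its level was not measured directly here. Cells with at least 15 other-cell marker counts per 10000 were taken as a rough reference for it. Doublets with hepatocytes may be among them. There were 121 of them in the library labelled AEG-1DMAC and 271 in the library labelled AEG-1fl/fl. They do not give a level that all cells share. Slc1a2 had 98.5 and 37.5 CPM in them, and 4.93 and 2.22 CPM in bin 1 of z, at the periportal end. For genes that other cells express themselves, such as their markers, this reference is not a level of free RNA. At 8000 counts per cell, Rhbg was found in 29.6% (95% Clopper-Pearson interval 24.2 to 35.5) and 19.8% (15.1 to 25.4) of pericentral cells. It was found in 2.62% and 0.405% of periportal cells and in 12.4% and 2.21% of the cells with other-cell markers. Slc1a2 was found in 57.3% and 34.0% of pericentral cells against 38.0% and 15.5% of cells with other-cell markers, and at their own depth 75 of 267 and 132 of 247 pericentral cells had none. For Glul the shares were 89.1% and 82.6% of pericentral cells against 88.4% and 78.2% of cells with other-cell markers. In periportal cells they were 49.4% and 45.3%, in a set made by a rule that counts Glul. The share of cells with a Glul count thus does not set the pericentral cells apart from that reference, which lay above the periportal cells as well.

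The periportal genes of the rule were below the level of that reference in the pericentral set. Sds had 41.4 and 22.2 CPM in the pericentral set and 153 and 96.2 CPM in the cells with other-cell markers. Cyp2f2 had 67.0 and 31.9 CPM against 280 and 148 CPM. The rule chose the pericentral cells for low counts of these genes, so the order is fixed by it, and these levels are not read as expression.

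The pericentral set of the library labelled AEG-1DMAC was then set against that of the library labelled AEG-1fl/fl, which asks how the hepatocytes near the central vein compare when AEG-1 is targeted in myeloid cells. Of 7352 genes with at least 200 counts in both libraries together and 20 in each, 78 (1.06%) were at least 2-fold higher and 70 (0.952%) at least 2-fold lower in the library labelled AEG-1DMAC. The median log2 ratio of all 7352 genes was 0.10. In the periportal set, 34 (0.511%) were higher and 47 (0.706%) lower of 6656 genes. Of the genes past 2-fold in the pericentral set, 20 of the 78 and 20 of the 70 were past it in the periportal set as well. With the median of ratios as the scale, 59 genes were higher and 82 lower in the pericentral set.

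**Figure D4:**
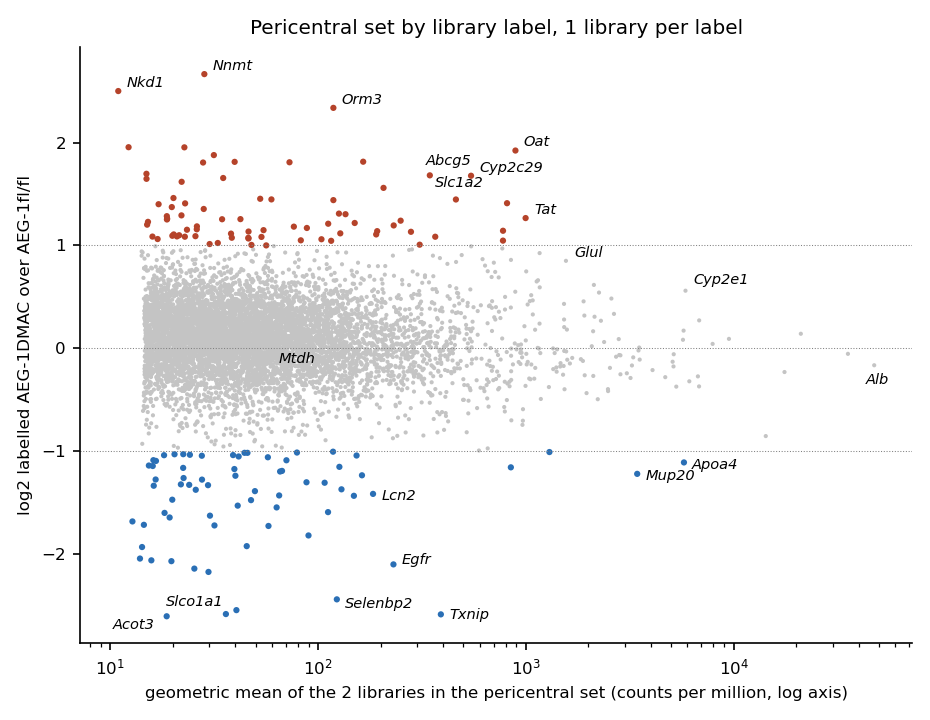
Each point is 1 of 7352 genes in the pericentral set, by its geometric mean level in CPM (horizontal, log axis) and its log2 ratio of the library labelled AEG-1DMAC over the library labelled AEG-1fl/fl (vertical). Red and blue points are the 78 genes at least 2-fold higher and the 70 at least 2-fold lower, with 1 library per label and no replicates; Nnmt is at 2.67, Txnip at -2.59 and Mtdh at 0.02.

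The 4 pericentral genes of the rule had higher levels in the pericentral set of the library labelled AEG-1DMAC. Glul (ENSMUSG00000026473, chromosome 1, 153899944 to 153909723) had 2094 CPM (2060 to 2129) in the library labelled AEG-1DMAC and 1162 CPM (1136 to 1188) in the library labelled AEG-1fl/fl, a log2 ratio of 0.85. Oat, which converts ornithine towards glutamate, had 1736 and 457 CPM, a log2 ratio of 1.92 (1.87 to 1.98). Cyp2e1, a cytochrome P450 that oxidizes ethanol, had 7123 and 4833 CPM and Cyp1a2 had 534 and 252 CPM. These 4 genes chose the members within each library by their ratio to periportal genes, and not by their level. The cells with other-cell markers showed the same order, with 547 and 305 CPM of Glul, 510 and 116 CPM of Oat and 1945 and 814 CPM of Cyp2e1, and the part of free RNA in these ratios was not tested.

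The levels in the cells above and below 20 Glul counts per 10000 are given as a description, since the split was made on Glul itself and narrows its range within each part. Within the pericentral cells at or above 20 Glul counts per 10000, Glul had 5006 CPM (4919 to 5093) in the library labelled AEG-1DMAC and 4256 CPM (4148 to 4367) in the library labelled AEG-1fl/fl. Below that level it had 379 CPM (361 to 398) and 372 CPM (356 to 389). Oat differed in both ranges, with 3600 and 1393 CPM above the level and 638 and 219 CPM below it. For Slc1a2 the values were 1903 and 1076 CPM above it and 87.7 CPM (79.1 to 97.0) and 75.7 CPM (68.5 to 83.4) below it, where the intervals overlap.

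Of 9 Wnt targets and feedback genes with enough counts, 2 were at least 2-fold higher and none was lower, with a median of 0.77 against 0.10 for all genes. Nkd1 had 26.0 CPM (22.3 to 30.1) in the pericentral set of the library labelled AEG-1DMAC and 4.58 CPM (3.11 to 6.51) in that of the library labelled AEG-1fl/fl, a log2 ratio of 2.5. Both levels are below the 46.2 and 36.2 CPM of the cells with other-cell markers. Bin 1 of z, at the periportal end, had only 1.97 and 0 CPM, far below those cells. The part of free RNA was not tested. Only the pericentral cells above the Glul level in the library labelled AEG-1DMAC, at 64.3 CPM, exceeded the cells with other-cell markers. Lgr5 had 27.7 CPM (23.9 to 32.0) and 10.5 CPM (8.20 to 13.2), a log2 ratio of 1.40. Axin2, Notum and Rnf43 had 0.77, 0.93 and 0.93, whereas Cldn2, a tight junction gene, had 0.03. Tbx3, with 76.8 and 93.2 CPM, was on the other side at -0.28 (-0.45 to -0.11), so the members of the list lay on both sides of 0.

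Of the 7 genes on the list named ammonium and glutamate handling, 2 were at least 2-fold higher and none was lower, with a median of 0.65. Slc1a2 had 761 CPM (740 to 782) and 279 CPM (266 to 292), a log2 ratio of 1.45. Lhpp had 1.11 and Rhbg 0.92 (0.68 to 1.17), while Rgn, a calcium-binding protein of pericentral cells, had -0.04 (-0.09 to 0.00). The cells with other-cell markers showed the same order, with 98.5 and 37.5 CPM of Slc1a2, 64.7 and 25.8 CPM of Lhpp and 19.0 and 4.59 CPM of Rhbg. The part of free RNA was not tested. Among 117 genes at least 2-fold higher in the pericentral than in the periportal set, 8 were at least 2-fold higher between labels and 2 at least 2-fold lower. The median of these 117 genes was 0.11, beside 0.10 for all genes.

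Of 20 genes of amino acid breakdown, 4 were at least 2-fold higher in the library labelled AEG-1DMAC and none was lower, with a median of 0.52. In the periportal set the median was 0.20, against -0.05 for all genes there. Tat, which starts tyrosine breakdown, had 1547 and 643 CPM in the pericentral set, a log2 ratio of 1.27 (1.22 to 1.32), and 1596 and 1508 CPM in the periportal set. The zone ratio of Tat was -0.05 in the library labelled AEG-1DMAC and -1.23 in the library labelled AEG-1fl/fl. Its level in the cells with other-cell markers was 433 and 189 CPM, below that of the pericentral set in each library.

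The other 3 genes of this list past 2-fold act on glycine, tyrosine and proline. Gnmt, a glycine methyltransferase, had 1324 and 498 CPM, a log2 ratio of 1.41. Hpd, the next enzyme of tyrosine breakdown, had 1154 and 522 CPM, a log2 ratio of 1.14. Prodh, proline dehydrogenase, had 1116 and 540 CPM, a log2 ratio of 1.05. The cells with other-cell markers had 437 and 150 CPM of Hpd, the same order. Gnmt and Hpd are among the genes that the study named from these libraries.

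The urea cycle list had a median of 0.40, with none of 8 genes past 2-fold. Ass1 was at 0.86 (0.81 to 0.91), Cps1 at 0.75 and Arg1 at 0.57, whereas Asl was at -0.01. The cells with other-cell markers had 1152 and 463 CPM of Ass1 and 505 and 285 CPM of Cps1. The pericentral level of Ass1 under the label AEG-1DMAC did not exceed that reference. Bin 20 of z in the same library had 488 CPM of Ass1, well below those cells. The part of free RNA was not tested. The periportal genes of the rule showed log2 ratios of 0.90 for Sds, 1.07 for Cyp2f2 and 1.65 for Gls2 in the pericentral set. Their levels there were below those of the cells with other-cell markers, which were themselves higher in the library labelled AEG-1DMAC (153 and 96.2 CPM for Sds).

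Nnmt (ENSMUSG00000032271, chromosome 9, 48591877 to 48605153), which methylates nicotinamide, had the highest ratio between labels of all genes tested in the pericentral set. It had 71.5 CPM (65.3 to 78.1) in the library labelled AEG-1DMAC and 11.2 CPM (8.85 to 14.1) in the library labelled AEG-1fl/fl, a log2 ratio of 2.67 (2.32 to 3.04). In the periportal set it had 118 and 95.2 CPM, a log2 ratio of 0.31. The pericentral set of the library labelled AEG-1fl/fl was thus the only one of the 4 with a low level, and its level was below the 37.8 CPM of the cells with other-cell markers in that library. Those cells had 47.7 CPM in the library labelled AEG-1DMAC.

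Other genes among the 12 highest ratios included Orm3 and Saa4, of acute phase protein families, at 2.34 and 1.82. Orm3 had 267 and 52.6 CPM, and its near-identical relatives Orm1 and Orm2 had log2 ratios of -0.23 and -0.22, and how the probes separate these copies is not given in the sources used here. Scnn1a, a subunit of the epithelial sodium channel, had 24.1 and 6.21 CPM. Bcl6, a transcriptional repressor of liver, had 44.7 and 11.5 CPM, a log2 ratio of 1.96 (1.59 to 2.33). Agxt, which detoxifies glyoxylate, had 1.88, and Snhg11, Camk1d, Atp11a and BC024139 lay between 1.70 and 1.81. Abcg5, a sterol exporter, had 618 and 193 CPM, a log2 ratio of 1.68.

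Txnip was among the 12 genes with the lowest ratios between labels. Txnip (ENSMUSG00000038393, chromosome 3, 96557957 to 96561883), a glucose-responsive inhibitor of thioredoxin, had 159 CPM (149 to 168) in the library labelled AEG-1DMAC and 957 CPM (934 to 981) in the library labelled AEG-1fl/fl. Its log2 ratio was -2.59 in the pericentral set and -1.80 in the periportal set. The cells with other-cell markers had 710 and 692 CPM of Txnip. Acot3, a peroxisomal thioesterase, had 7.55 and 46.1 CPM, a log2 ratio of -2.61 (-3.06 to -2.18). Fgf21, a hormone of fasting and of PPARα, had 43.3 and 99.5 CPM.

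Others of the 12 lowest ratios were those of Egfr, Slco1a1, Selenbp2, Nat8 and Cyp21a1. Egfr, the epidermal growth factor receptor, had 111 and 478 CPM, a log2 ratio of -2.11 (-2.22 to -1.99). Slco1a1, an uptake transporter, had 16.7 and 97.9 CPM, and Selenbp2, a selenium-binding protein, had 52.7 and 287 CPM. Nat8 and Cyp21a1 had log2 ratios of -2.07 and -1.94.

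Some of the lower genes are known from other cells. Gpnmb, of lipid-associated macrophages, had 9.59 and 40.4 CPM in the pericentral set and 153 and 805 CPM in the cells with other-cell markers. Spp1 had 23.2 and 88.4 CPM against 287 and 632 CPM. Those cells were picked for markers of other cells, so the lower pericentral levels of both genes do not measure free RNA. The part of free RNA in these ratios was not tested. The macrophage list summed to 615 and 696 CPM in the pericentral set over 12 genes, none of them at 0, and 1 of 9 genes with enough counts was at least 2-fold lower. The cholangiocyte list summed to 35.6 and 105 CPM, the stellate cell list to 223 and 259 CPM, the endothelial list to 90.5 and 58.3 CPM, the lymphocyte and neutrophil list to 21.9 and 31.6 CPM and the red cell list to 146 and 79.7 CPM.

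Acute phase and inflammation genes lay on average below 0. Of 20 acute phase genes, 2 were at least 2-fold higher (Orm3 and Saa4) and 3 at least 2-fold lower (Saa3, Lcn2 and Apcs), with a median of -0.29. Lcn2, lipocalin 2, had 112 and 301 CPM, a log2 ratio of -1.42. Of 12 inflammation genes, 3 were at least 2-fold lower (Cxcl1, Icam1 and Vcam1) and none was higher, with a median of -0.50. Vcam1 had 10.7 and 23.8 CPM in the pericentral set against 324 and 781 CPM in the cells with other-cell markers. Of the 24 genes that the study named for hepatocytes, 5 were at least 2-fold higher and 7 lower, with a median of -0.51. That list was chosen on these libraries and is not independent evidence of its direction.

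Lipid and detoxification lists held few genes past 2-fold between labels. The medians were -0.17 for 20 genes of fatty acid oxidation and ketogenesis, -0.21 for 15 lipid droplet genes, -0.09 for 21 genes of glycolysis and lipogenesis, and 0.07 for 19 genes of cholesterol synthesis and uptake, the last of which was below 0 when scaled by the median of ratios. Below 0 were 18 of the 20 oxidation and ketogenesis genes and 11 of the 15 lipid droplet genes, beside a median of 0.10 for all genes. Of these lists, Fgf21 alone was past 2-fold, at -1.20. Of 17 cytochrome P450 and partner genes, Cyp2c29 and Cyp2c37 were higher, at 1.68 and 1.26, and the median was 0.08, or below 0 when scaled by the median of ratios. The conjugation list had 3 of 19 genes higher (Nnmt, Sult1d1 and Gstt3) and a median of -0.04. The receptor and heme lists had none of 8 and none of 11 past 2-fold, with medians of 0.04, below 0 under that scaling, and -0.15. Of 16 bile acid genes, 1 was higher and 1 lower (Nr0b2 at 1.45 and Slco1a1 at -2.55), with a median of 0.37.

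**Figure D5:**
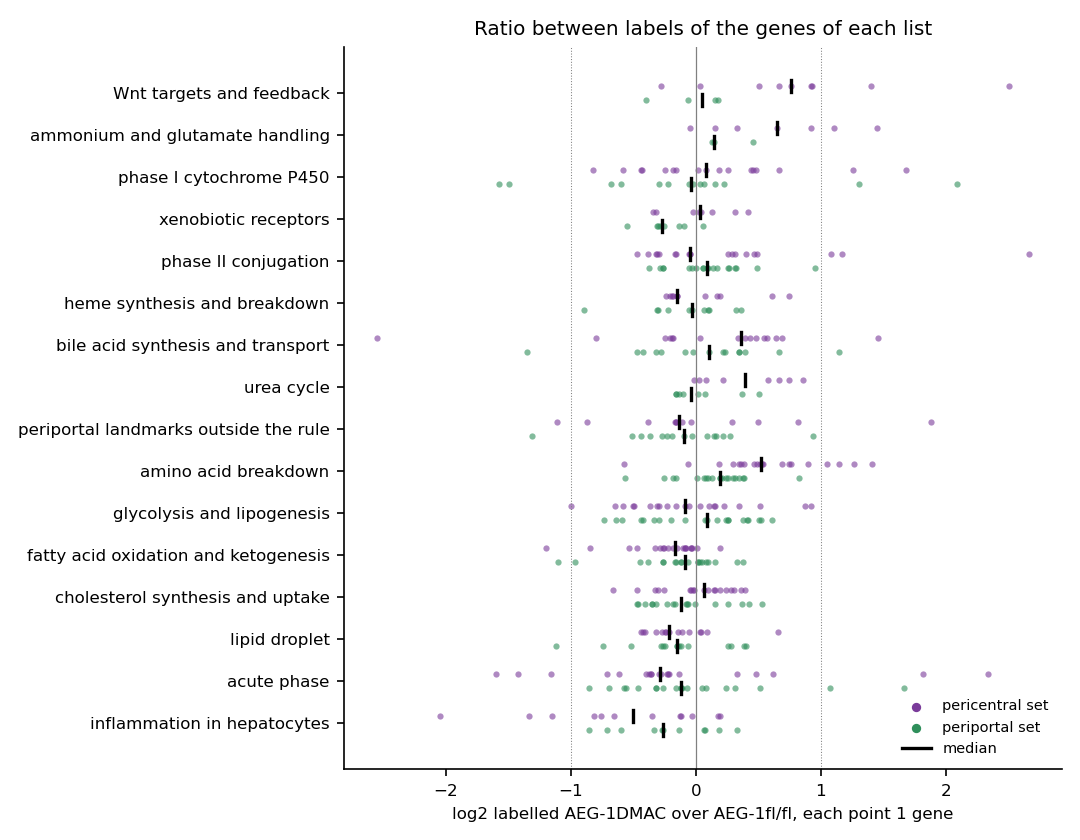
Log2 ratio of the library labelled AEG-1DMAC over the library labelled AEG-1fl/fl (horizontal) for the genes of 16 lists with enough counts, in the pericentral set (purple) and the periportal set (green), with a black bar at each median. The purple medians of the Wnt list (0.77), of ammonium and glutamate handling (0.65) and of amino acid breakdown (0.52) are the highest, and that of inflammation (-0.50) is the lowest.

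The ratio between labels was then compared between the pericentral and the periportal set. Of 6572 genes with enough counts in both, the log2 ratio differed by at least 1 in 41 (0.624%), of which 32 (0.487%) were higher and 9 (0.137%) lower in the pericentral set. No gene was past 2-fold in opposite directions in the 2 sets. Nnmt had the highest difference, 2.35 (95% interval from the 4 counts 1.97 to 2.73), followed by Scnn1a at 2.30 (1.68 to 2.93). Tat differed by 1.18 (1.12 to 1.25). The lipase Lipg, the esterase Ces3b and the lysophospholipid transporter Mfsd2a differed by 1.32, 1.30 and 1.29.

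Ratios of Mfsd2a and Ces3b came from higher pericentral levels under the label AEG-1DMAC, with 355 and 120 CPM for Mfsd2a and 437 and 217 CPM for Ces3b. For Lipg the periportal set made the difference, with 27.1 and 56.4 CPM there against 111 and 93.0 CPM in the pericentral set. Por was similar, with 357 and 480 CPM in the pericentral set and 146 and 411 CPM in the periportal set.

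Cxcl1, a neutrophil-attracting chemokine, had the lowest difference, -2.12 (-2.64 to -1.60). It had 6.83 and 28.2 CPM in the pericentral set and 45.4 and 43.2 CPM in the periportal set, so the low value was in the pericentral set of the library labelled AEG-1DMAC. Fabp4, a fatty acid carrier of adipocytes, macrophages and endothelial cells, had 47.8 and 169 CPM in the pericentral set and 26.9 and 32.7 CPM in the periportal set. Fabp4 had 392 and 243 CPM in the cells with other-cell markers, an order opposite to that in the pericentral set. Vsig4, Dst and Maff had differences of -1.44, -1.43 and -1.23, and Vsig4 is a gene of Kupffer cells.

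The central vein genes differed less clearly between the sets. Slc1a2 had a difference of 0.99 (0.61 to 1.37) and Glul of 0.49 (0.33 to 0.65). For Lgr5 (1.05, -0.66 to 2.75) and Rhbg (0.05, -1.07 to 1.17) the periportal counts were too few to tell. Oat had log2 ratios of 1.92 and 2.18 in the pericentral and the periportal set, so its higher level under the label AEG-1DMAC was present at both ends of the axis. Cyp2c29 had 1.68 and 2.09, and Egfr -2.11 and -1.60.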

How the data were processed

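The authors ran Cell Ranger and deposited raw counts of molecules per gene and cell, not normalized. Per the labels the version was 7.1.0 and the reference mm10, which has the coordinates of GRCm38, while the study's methods give another version. The assay was the 10x Genomics probe-based kit for fixed RNA. From the deposited counts, hepatocytes and sets of z were taken as described above, ties at a limit were split by barcode, and counts were summed per library and set over 19059 genes. No doublet caller was run, so cells of very high counts were removed by the count limit alone. CPM has exact Poisson intervals, and log2 ratios have Clopper-Pearson intervals of 1 count given the sum of both, at 95%. A difference of log2 ratios has a normal interval from its 4 counts. Intervals cover counting error only. A count of 0 was not converted into a bound, and no fold change was taken from one.

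The genes named are those on fixed lists, the 12 highest and 12 lowest by zone and by label, the 5 highest and 5 lowest by difference, Mtdh, and the 5 most like Glul. Genes named outside this rule were chosen after their values were seen. Some genes that the rule names are not reported here. The members and the gene lists were chosen with earlier results of these data known. Since probes per gene differ, levels were compared between cells and not between genes. Python 3.11.15, NumPy 2.4.6, SciPy 1.17.1, pandas 2.3.3 and matplotlib 3.10.9 were used. The calculation was run on simulated counts with Poisson error alone. These hold no variation between cells or mice, so they check the arithmetic and not the spread of such data. Positions are from GENCODE vM21.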

Additional observations from a re-analysis of the deposited data

How the results depend on the processing

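Each comparison was repeated under 15 alternatives, of which the exclusion of cells whose barcode is in both libraries was chosen after seeing the data. With the 10% of cells highest and lowest in z, the genes 2-fold higher and lower between labels numbered 34 and 34, against 78 and 70. With z from Cyp2e1 and Cyp2f2 alone, 147 genes differed 2-fold between sets in their ratio between labels, against 41. With a count minimum of 50, the genes higher and lower by zone, higher and lower by label, and different between sets numbered 201, 86, 144, 135 and 231. With no minimum beyond 1 count they numbered 314, 243, 508, 869 and 1445, and more genes were tested. With each cell thinned to 8000 counts, 52 were higher by zone, 35 higher and 34 lower by label, and 13 different, and fewer genes were tested. Of 1094 values of single genes, 6 had another sign, all of them of Mtdh, whose ratio was near 0. Of 810 list medians, 51 had another sign. No paired analysis was possible because each label has 1 library. With 1 library per label no replicate could be left out, and depth limits genes of few counts such as Lgr5, Rhbg and Sdsl in the periportal or pericentral set.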

Other observations

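A few other gene groups were measured in the pericentral set, beside the shares over all genes. By zone, 1.72% of all genes were at least 2-fold higher and 0.721% lower in both libraries, with medians of 0.32 and 0.17. Between labels, 1.06% were at least 2-fold higher and 0.952% lower in the pericentral set, with a median of 0.10. Of 9 hypoxia genes with enough counts, 2 were at least 2-fold higher in the pericentral than in the periportal set in both libraries (Pfkfb3 and Egln3) and none was lower, with medians of 0.25 and 0.59 log2 units. Between labels, 1 of 11 was at least 2-fold lower (Hk2), with a median of -0.09. Of 12 liver genes known to be higher in males, 1 was at least 2-fold higher (Elovl3) and 5 at least 2-fold lower (Mup20, Cyp4a12a, Cyp4a12b, Slco1a1 and Egfr) in the library labelled AEG-1DMAC, with a median of -0.49. In the periportal set the median of this list was -0.42, against -0.05 for all genes there, so the shift was not particular to the pericentral set. Among genes known to be higher in females, 2 had enough counts, 1 was at least 2-fold lower and none was higher. The 4 Y-linked genes summed to 221 and 191 CPM in the pericentral sets of the libraries labelled AEG-1DMAC and AEG-1fl/fl. None of them was past 2-fold between labels, with a median of 0.22. Xist was not among the genes measured. Of 10 stress genes, none was past 2-fold between labels, with a median of -0.01. Of 5 gluconeogenesis genes, none was past 2-fold in either comparison, with a median of -0.23 between labels.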
